A study of Mus musculus with 21 samples.

Results

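The control oocytes of the series were heterozygous for a floxed allele of Kif11 and carried no Cre (wt/fl). They were taken by genotype label, which gave 4 of the 21 libraries. The series combined wild-type, floxed and deleted alleles of Kif11 with Cre driven by the Spo11, Gdf9 or Zp3 promoter. KIF11 is the plus-end-directed motor that pushes spindle poles apart. Each wt/fl library was made from poly(A) RNA of 3 fully grown oocytes at the germinal vesicle stage. The oocytes came from females of 3 to 4 months primed with equine chorionic gonadotropin or a commercial hyperovulation reagent. Each mouse carried 1 wild-type Kif11 allele and 1 allele with loxP sites inserted by CRISPR-Cas9 on a C57BL/6 background, so the group is a control for the floxed strain and not an unmodified wild type. A mouse gave 1 or 2 libraries. Replicates 1 and 2 share a prefix in their library names, as do replicates 3 and 4, so the 4 libraries may come from as few as 2 mice, and the spread between them may be partly technical.

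A fully grown oocyte is a transcriptionally silent cell arrested in prophase of the first meiotic division. It holds a store of mRNA made during growth, much of it translated only when meiosis resumes, and this store supports the meiotic divisions, fertilization and the first steps of the embryo until the zygotic genome is switched on. Its best known products are the zona pellucida glycoproteins, growth factors of the transforming growth factor beta family that act on the surrounding cumulus cells, and maternal-effect proteins kept in the cytoplasm for the embryo.

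Total counts were 12729969 to 14283549 per library, and a gene with 2 kb of exons would need 0.256 to 0.293 TPM for 3 counts. Levels are given as TPM, the share of transcripts scaled within each library, which are per length and can be compared between genes, in the order of replicates 1, 2, 3 and 4, with the mean ± SD where stated. A comparison between genes depends on the gene lengths behind the TPM. No genotype was compared with another.

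The markers of the labelled cell type were abundant. Zp3, a zona pellucida glycoprotein, was at 6383, 8107, 6279 and 8367 TPM. Gdf9, a growth factor for cumulus and granulosa cells, was at 4939.8, 6634, 4868 and 7329 TPM. Bmp15, its X-linked partner, was at 1646, 1924, 1599 and 2333 TPM. Nlrp5, a core protein of the subcortical maternal complex, was at 778, 1126, 880.2 and 1254 TPM. A mean of 1000 TPM or more was reached by 135 of the 54232 genes in the table.

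Markers of the cells that surround the oocyte were low. The 14 markers of granulosa and cumulus cells summed to 65.2, 57, 54.4 and 43 TPM, against 10401, 13563, 10605 and 14609 TPM for the 3 zona pellucida genes. Only 2 of the 14 reached 1 TPM in every library. Cyp19a1, the aromatase that makes estradiol, was at 43, 37, 42.4 and 27.3 TPM and Nr5a2, a nuclear receptor of granulosa cells, at 15.5, 12.8, 10.9 and 10.4 TPM, and together they made up most of the sum. Foxl2, Amhr2, Inhba, Ptx3 and Tnfaip6 had a count of 0 in all 4 libraries. The highest level that 3 counts would give was 0.0916 TPM for the longest of them, Inhba, and 0.342 TPM for the shortest, Tnfaip6. Fshr, the receptor for follicle-stimulating hormone, was at 2.21, 2.25, 0.353 and 1.31 TPM and Inha at 2.31, 2.38, 0 and 0.263 TPM. None of the 6 theca and luteal markers reached 1 TPM in all libraries, and their sum was 2.1, 1.27, 2.54 and 0.739 TPM. Of 11 blood, immune, endothelial and stromal markers, 8 were at a count of 0 in every library, including the 4 adult hemoglobin genes and Ptprc, and the 2 that passed 1 TPM were Pecam1 at 8.49, 13.4, 10.6 and 13.9 TPM and Cd68 at 7.05, 8.23, 1.17 and 7.41 TPM. In pooled cells a few cells of another type and a low level in every oocyte cannot be told apart, and whether adhering cells contributed to Cyp19a1 was not tested.

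The promoters of a few of these genes show what lies before the start sites of an abundant oocyte gene. RefSeq sequence on GRCm38.p6 is given for the 250 bases before the annotated start of H1foo and Elobl, the most abundant transcripts, of the markers Zp3 and Bmp15, and of Kif11, the gene targeted in the series. Capitals mark matches on either strand to CANNTG, the E-box that basic helix-loop-helix factors bind, to TATAAA, the TATA box, and to TAATTG, a homeodomain motif.

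H1foo chr6:115944681-115944930 plus strand: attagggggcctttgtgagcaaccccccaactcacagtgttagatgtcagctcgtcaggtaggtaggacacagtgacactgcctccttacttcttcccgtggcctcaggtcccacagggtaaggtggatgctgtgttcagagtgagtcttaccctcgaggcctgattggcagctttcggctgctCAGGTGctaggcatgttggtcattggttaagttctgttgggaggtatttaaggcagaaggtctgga
Elobl chr11:88966932-88967181 minus strand: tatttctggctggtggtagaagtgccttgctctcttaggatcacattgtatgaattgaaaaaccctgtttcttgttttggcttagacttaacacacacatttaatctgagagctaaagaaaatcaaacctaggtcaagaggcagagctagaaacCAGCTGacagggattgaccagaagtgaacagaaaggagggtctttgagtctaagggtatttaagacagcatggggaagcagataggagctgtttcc
Zp3 chr5:135979855-135980104 plus strand: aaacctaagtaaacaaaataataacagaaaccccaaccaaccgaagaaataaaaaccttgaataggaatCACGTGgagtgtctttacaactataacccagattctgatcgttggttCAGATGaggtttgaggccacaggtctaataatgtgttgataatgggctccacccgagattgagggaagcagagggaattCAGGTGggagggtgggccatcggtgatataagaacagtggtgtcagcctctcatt
Bmp15 chrX:6320725-6320974 minus strand: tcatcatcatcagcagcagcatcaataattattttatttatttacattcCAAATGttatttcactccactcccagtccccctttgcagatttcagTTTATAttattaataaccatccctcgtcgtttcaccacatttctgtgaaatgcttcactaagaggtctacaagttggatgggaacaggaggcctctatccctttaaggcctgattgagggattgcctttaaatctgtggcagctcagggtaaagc
Kif11 chr19:37376132-37376381 plus strand: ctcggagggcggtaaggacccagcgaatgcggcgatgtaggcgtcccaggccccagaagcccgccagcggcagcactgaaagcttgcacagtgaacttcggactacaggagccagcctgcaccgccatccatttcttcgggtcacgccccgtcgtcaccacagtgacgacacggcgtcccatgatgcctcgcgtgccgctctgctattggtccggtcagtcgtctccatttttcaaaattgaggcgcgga

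H1foo held 1 E-box, 66 bases before the start, and Elobl 1, at 96 bases. Zp3 held 3, at 181, 134 and 55 bases. Bmp15 held 1 E-box at 201 bases and a TATAAA match at 155 bases. Kif11 held none of the 3 motifs and was the richest in CpG, with 24 CpG dinucleotides in the 250 bases against 0 for Elobl, 2 for Bmp15, 4 for H1foo and 5 for Zp3. Over all 32851 promoters of the table, 66.2% held CANNTG, 12.4% TATAAA and 7.17% TAATTG, so an E-box in a window of this length was the usual case. A match is a run of letters and not evidence that a factor binds. Of the 100 most abundant genes, 75 had a promoter in the table, too few for a comparison of shares.

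Transcripts of H1foo, the linker histone of the oocyte, were the most abundant, at 18376, 18476, 18802 and 19472 TPM. Elobl, a gene related to elongin B, followed at 18158, 17112, 18655 and 17025 TPM. H1foo was above Elobl within each library, although their ranges across libraries overlapped. Ldhb, the heart-type subunit of lactate dehydrogenase, followed at 12212, 14633, 13177 and 14326 TPM. Dppa3, also known as Stella, which protects DNA methylation in the zygote, was at 10773, 12039, 11313 and 11038 TPM.

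**Figure D1:**
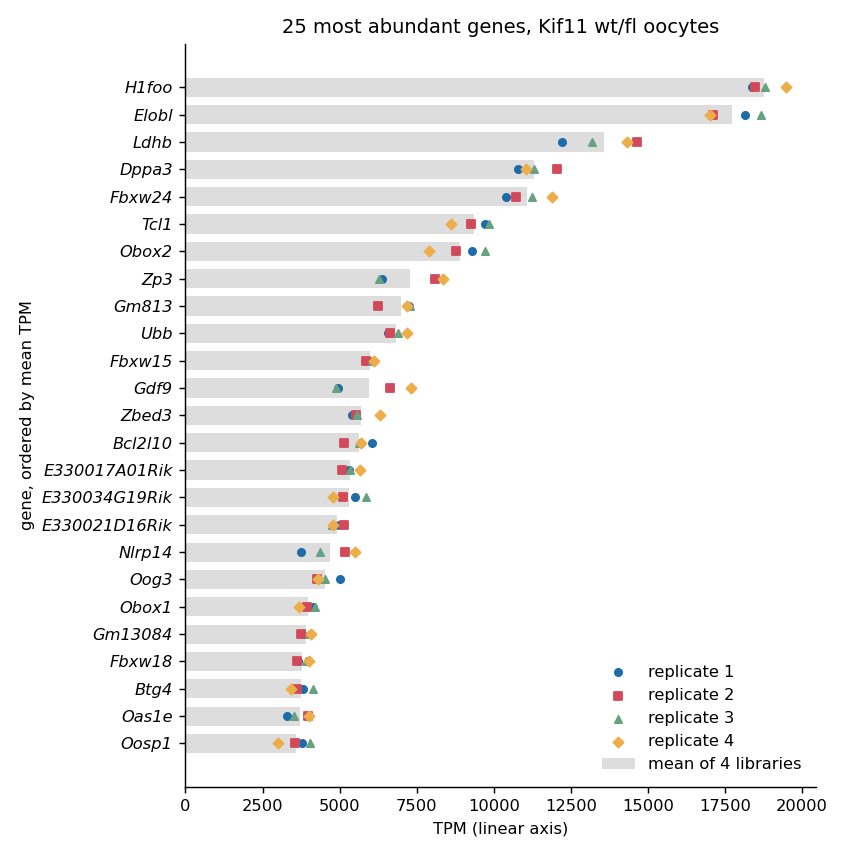
TPM of the 25 most abundant genes (linear horizontal axis) in each of the 4 wt/fl libraries (points) with the mean of the 4 (bars). The lowest Elobl value, 17025 TPM, lies above every Ldhb value, and the CV was largest for Gdf9 (20.8%), Nlrp14 (16.9%) and Zp3 (15.2%).

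The next genes in rank were mostly of families that mouse oocytes are known for. Fbxw24, an F-box and WD40 repeat protein, was at 10405, 10710.1, 11237 and 11905 TPM. Tcl1, a coactivator of AKT kinases, was at 9717, 9257, 9843 and 8627 TPM. Obox2, an oocyte homeobox gene, was at 9292, 8768, 9711 and 7889 TPM. Their ranges did not overlap with those of the first 3 genes. Further down the 25 were Gm813 (6997 ± 495 TPM, SD, n = 4), the polyubiquitin gene Ubb (6826 ± 279.5), the apoptosis regulator Bcl2l10 (5626 ± 374), the uncharacterised E330017A01Rik (5349 ± 245), E330034G19Rik (5313 ± 474) and E330021D16Rik (4915 ± 184), the preferentially expressed antigen in melanoma family member Gm13084 (3899 ± 155) and Oas1e (3701 ± 353), of the oligoadenylate synthetase family. Of the 24 pairs of neighbours in this order, 19 had ranges that overlapped. Fbxw15 had the smallest relative spread of the 25, at 5995 ± 115 TPM, a coefficient of variation (CV) of 1.91%, and Gdf9 the largest, at 20.8%.

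Abundance was concentrated in few genes. The 10 most abundant genes held 11.2% ± 0.192 of TPM, the 100 most abundant 34.2% ± 0.435 and the 1000 most abundant 70.3% ± 0.509 (SD, n = 4). Of the mean TPM, 50% lay in 303 genes and 90% in 3408. By CPM, which scales counts to the library total without dividing by length, the 100 most abundant genes held 26.0%.

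**Figure D2:**
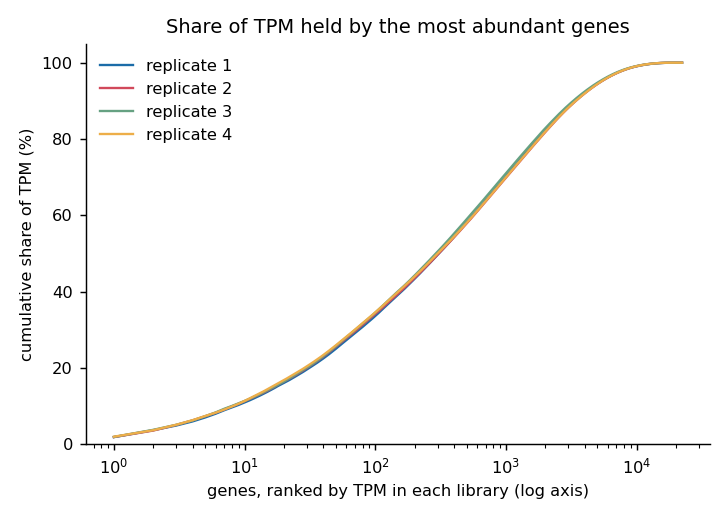
Cumulative share of TPM (vertical axis, percent) against the rank of the gene in each library (log horizontal axis), 1 line per library. The lines nearly coincide, passing 33.6% to 34.5% at 100 genes and 69.8% to 71.0% at 1000.

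Members of several families lay together in the genome and in the list of abundant genes. Of the 100 most abundant genes, 18 were on chromosome 9, which held 5.76% of all detected genes, and 10 on chromosome 6, which held 5.06%. The Fbxw, Oosp and Oas1 genes below were picked by name and chromosome, so that each set shares a chromosome was fixed by the choice. Of 13 Fbxw genes picked on chromosome 9, 10 were among the 100 most abundant. The 13 span chr9:109139447-109790670 (GRCm38) and were at 1 TPM or more in every library. Their means ran from 730 TPM for Fbxw13 to 11064 for Fbxw24, with a sum of 40611. Fbxw23, an annotated pseudogene in the same interval at 554 ± 43.9 TPM, was not among the 13. The 3 Oosp genes lie within chr19:11647279-11711874 and were at 3596 ± 439 TPM for Oosp1, 2499.9 ± 117 for Oosp3 and 2459.6 ± 169 for Oosp2. Of the 8 Oas1 genes within chr5:120786226-120921652, 7 were at 1 TPM or more in every library and 3 were among the 100 most abundant, while Oas1a had a mean of 0.582 TPM. Members of such families share sequence. Only uniquely mapped reads were counted, so reads common to near-identical copies could be lost, and the levels of single Fbxw, Oog, Obox, Oas1, Tcl1 and E330 members are uncertain.

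In all, 11394 genes were at 1 TPM or more in all 4 libraries, of 54232 in the table, and 4943 more passed 1 TPM in 1 to 3 libraries. Protein-coding genes held 90.1% ± 0.312 of TPM, and 9321 of 21983 (42.4%) passed 1 TPM in every library. A count of 0 in all 4 libraries was found for 6817 protein-coding genes. Long noncoding RNAs held 5.58% ± 0.210 of TPM and pseudogenes 3.71% ± 0.0657.

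The most abundant genes that were neither protein-coding nor mitochondrial were Rpl37rt, a pseudogene related to Rpl37, at 1865, 1823, 1999.6 and 1778 TPM, the long noncoding AA545190 at 1553, 1370.5, 1506 and 1266 TPM and Gm42817 at 1359, 1224, 1392 and 1325 TPM. Dynlt1-ps1, an annotated pseudogene of a dynein light chain, was at 1282, 1293, 1398 and 1320.4 TPM and the long noncoding 1700018B24Rik at 1255, 1144, 1317 and 1117 TPM. The CVs of these 5 genes ran from 3.93% to 9.18%. Libraries carried no strand information, so reads of genes that overlap on opposite strands cannot be told apart. Small and structured noncoding RNAs, which are mostly not polyadenylated, held 0.154% ± 0.0368.

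Segments of antigen receptor genes held 0.157% ± 0.00837 of TPM, and 18 of 494 passed 1 TPM in every library. The immunoglobulin heavy chain constant regions Ighg2b and Ighg1 were at 321, 291, 292 and 253 TPM and 213, 209.5, 202 and 232 TPM, Ighm was at 165, 146, 122 and 121 TPM and the lambda constant region Iglc3 at 309, 237, 276 and 306 TPM. The B cell genes Cd79a, Cd79b, Cd74, Jchain and the kappa constant region Igkc had a count of 0 in every library, while the B cell gene Ms4a1 was at 53.5, 57.3, 64 and 59.1 TPM. Of genes used as plasma cell markers, Sdc1, a proteoglycan also made by epithelia, was at 23.5, 36, 20.2 and 36.6 TPM, and Mzb1 had counts of 0, 9, 0 and 0. These B cell and plasma cell genes were chosen after the immunoglobulin values were seen.

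X-linked genes were at about the level of autosomal genes. Over genes at 1 TPM or more in every library, the median of 300 X-linked protein-coding genes was 14.1 to 15.8 TPM and that of 8993 autosomal genes 15.3 to 16.8 TPM, a ratio of 0.962, 0.845, 0.920 and 0.947 in replicates 1 to 4. The ratio was below 1 in every library. It moved with the threshold, to 1.00 for genes at 5 TPM or more and to 0.859 for genes above 0. Xist and Tsix, the pair of noncoding RNAs that control X inactivation, had a count of 0 in all 4 libraries. Xist has an exon length that 3 counts would put at 0.0326 TPM at most. Exons of other annotated genes cover 12.6% of the exon bases of Xist and 32.6% of those of Tsix.

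**Figure D3:**
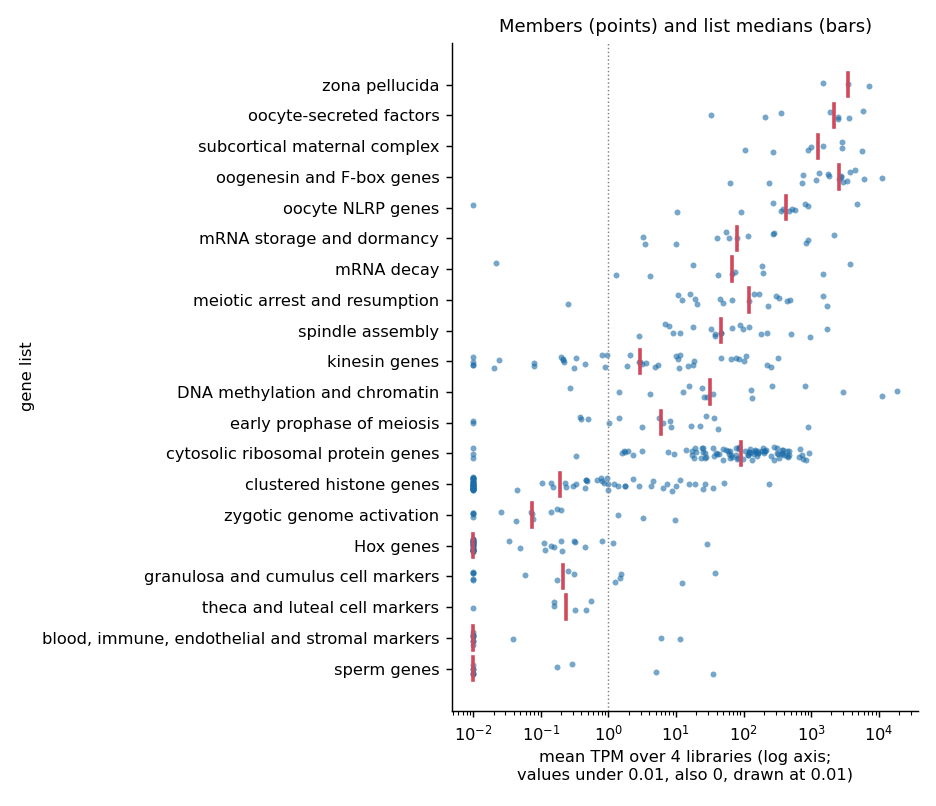
Mean TPM over the 4 libraries (log horizontal axis) of each member of 20 gene lists (points) with the median of the list (bars), and a dotted line at 1 TPM. The 5 lists from zona pellucida to oocyte NLRP genes have medians from 422 to 3497 TPM, and markers of follicle cells, blood and sperm have medians under 1 TPM.

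The zona pellucida genes were each above 1000 TPM. Zp3 was the highest (7284 ± 1106 TPM), Zp2 was at 2636, 3853, 3090.4 and 4409.8 TPM and Zp1, which cross-links the filaments, at 1381, 1604, 1236 and 1831 TPM. The order was the same in every library, with Zp3 2.11 ± 0.222 times Zp2 and Zp2 2.31 ± 0.268 times Zp1 (SD, n = 4). All 3 were higher in replicates 2 and 4 than in replicates 1 and 3, with no overlap.

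Oocyte-secreted factors summed to 16000.2, 17356, 16305 and 18206 TPM, and all 8 passed 1 TPM. Gdf9 exceeded Bmp15 by 3.16 ± 0.202 times per library. Fgf8, which acts with Bmp15 on cumulus cell metabolism, was at 315, 345, 366 and 388 TPM, Rspo2 at 204, 215, 202 and 207 TPM and Bmp6 at 31.9, 34.2, 26.7 and 37.6 TPM. Rspo2 was the steadiest of the list, at a CV of 2.74%. Of receptors and junction genes, Gja4, the connexin of the gap junctions between the oocyte and granulosa cells, was at 1071 ± 152 TPM and Kit, the receptor for Kit ligand, at 21.2, 32.4, 21.8 and 37.8 TPM, whereas Gja1, the connexin between granulosa cells, was at 0.00831 TPM on average with counts in 1 library.

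The subcortical maternal complex, an assembly of maternal proteins needed for the early embryo, had a mean of 100 TPM or more for all 8 listed genes. Zbed3 was the highest at 5389, 5537, 5552 and 6326 TPM. Padi6 was at 2296, 3479, 2483 and 3329 TPM, Ooep at 2859, 2788, 2949.6 and 2791 TPM and Tle6 at 1280.2, 1727, 1318 and 1699.8 TPM. Khdc3 was the lowest, at 93, 103, 108 and 112 TPM. Padi6, Tle6, Nlrp5 and Nlrp2 were higher in both replicates 2 and 4 than in both replicates 1 and 3, as were 26.1% of all genes at a mean of 10 TPM or more. Ooep was lower in both, although its CV was only 2.66%, and that of Nlrp4f was 2.15%.

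The NLRP genes of the oocyte, relatives of inflammasome genes with maternal roles, were led by Nlrp14 at 3748, 5177, 4359.7 and 5507 TPM. Without Nlrp5, described above with the maternal complex, the other 10 with counts ran from Nlrp4c at 10.3 ± 2.06 TPM to Nlrp4f at 892 ± 19.2 TPM. Nlrp4d had a count of 0 in all libraries. The 17 listed oogenesin and F-box genes together held 4.76% of TPM, and their sum was 46337, 46521, 48732 and 48970.00 TPM, a CV of 2.95%. Fbxw27, at 1336 ± 29.7 TPM, and Gm13084 were not in that list. Oog3 was at 5028, 4268, 4514 and 4299 TPM and Oog4 at 2585, 2763, 2510.1 and 3272 TPM, and Oog1 at 243, 231, 241 and 228 TPM.

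Of the transcription factors that direct oocyte growth, Nobox was at 843, 928, 724 and 962 TPM, Figla, which drives the zona genes, at 125, 166, 166 and 177 TPM and Lhx8 at 122, 152, 138 and 160.4 TPM. Sohlh1, which acts earlier in follicle formation, had counts in 1 library only, and Sohlh2 was at 7.43, 6.52, 3.18 and 13.3 TPM. Tbpl2, the oocyte-specific relative of the TATA-binding protein Tbp, was at 42.8, 38.4, 35.5 and 36.6 TPM and Tbp at 32.6, 28.7, 29.6 and 28.1 TPM with no overlap. Their counts went the other way, at 2597, 1994, 2192 and 1965 for Tbp and 346, 271, 267 and 260 for Tbpl2. The order by TPM therefore rests on the gene lengths used. Obox5 was at 3916, 3242, 3651 and 3409 TPM, while Obox3 and Obox6 were under 1 TPM on average. Pou5f1, a pluripotency factor, was at 18.7, 13, 15.7 and 19.2 TPM, Esrrb at 98.1, 104, 99 and 105 TPM and Sall4 at 53.3, 57.6, 41.2 and 48.4 TPM, and Nanog was at a count of 0.

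Genes for storage of mRNA passed 1 TPM in 13 of 13 cases. Zar1l was at 2152, 2258, 2249 and 1966 TPM and its relative Zar1, which organises stored mRNA, at 831, 877, 696 and 913 TPM. Dazl, an activator of translation in meiosis, was at 959, 892, 911 and 816 TPM and Cpeb1, which binds the cytoplasmic polyadenylation element, at 226, 279, 247 and 321 TPM. The oocyte form Eif4e1b of the cap-binding protein was at 79.5, 85.7, 80.5 and 73.4 TPM, below the general Eif4e at 311, 282, 291 and 261 TPM in every library. Ybx2, also known as MSY2, was at 36.1, 39.2, 31.7 and 55.6 TPM.

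The genes for clearance of maternal mRNA were present as well. Btg4, the adaptor that recruits the CCR4-NOT deadenylase after meiosis resumes, was at 3815, 3613, 4149.6 and 3411 TPM and Pabpn1l at 1842, 1303, 1304 and 1514 TPM. The deadenylases Cnot8 and Cnot7 were at 192 ± 18.1 and 187 ± 11.5 TPM. Zfp36l2, an RNA-binding protein that destabilises mRNA, was low at 2.41, 0.553, 1.04 and 1.21 TPM, and of the terminal uridylyl transferases Tut7 was at 3.84, 4.97, 4.38 and 3.12 TPM and Tut4 at 0.0218 TPM on average.

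Genes of the prophase arrest and its release passed 1 TPM in 18 of 19 cases. Mos, the kinase that starts the MAP kinase cascade of the oocyte, was at 1748, 1613, 1755 and 1832 TPM. Ccnb1, the main cyclin of maturation-promoting factor, was at 1564, 1579, 1330.1 and 1429 TPM and Ccnb2 at 414, 455, 454 and 443 TPM, so that Ccnb1 was 3.35 ± 0.357 times Ccnb2. Wee2, the oocyte kinase that holds CDK1 inactive, was at 515, 500.1, 463 and 480.1 TPM and Cdk1 at 106, 131, 124 and 121 TPM. Cdc25b, the phosphatase that opposes it, was at 13.4, 13.6, 10.3 and 11.3 TPM. Gpr3, the receptor that keeps cyclic AMP high, was at 22.1, 23, 13.4 and 22.9 TPM, Pde3a, which degrades cyclic AMP, at 9.46, 10.6, 11.3 and 11.5 TPM, and Adcy3 below 1 TPM in every library.

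Of 20 spindle genes, 19 passed 1 TPM in every library. Tacc3, which stabilises spindle microtubules and organises the liquid-like spindle domain of oocytes, was the highest at 1499.6, 1838, 1630.01 and 1916 TPM. The Aurora kinases stood in the order Aurkc at 996, 835, 1039.8 and 951 TPM, Aurka at 498, 486, 469 and 549 TPM and Aurkb at 30.2, 33.9, 36.4 and 30.0 TPM, with no overlap, and Aurkc, the germ cell member, was 29.5 ± 3.71 times Aurkb. Tpx2, which activates Aurora A, was at 224, 216, 235 and 210.2 TPM and Dlgap5, also known as HURP, at 92.2, 104, 93.3 and 102 TPM. Ran was at 70.6, 105, 75.4 and 108 TPM and its exchange factor Rcc1 at 8.2, 9.33, 6.52 and 12.6 TPM. Cep192, a marker of acentriolar microtubule-organizing centers, was at 6.04, 8.99, 7.9 and 8.36 TPM and Map4, a microtubule-binding protein, at 11.3, 14.4, 10.2 and 10.2 TPM.

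Kif11 itself was at 19.6, 22.3, 11.9 and 16.6 TPM (mean 17.6 ± 4.44), from counts of 555, 550.00, 314 and 412. Replicate 3 was the lowest and replicate 2 the highest, a 1.87-fold range, the CV was 25.2%, and the rank by mean TPM was 5294. The authors' TPM for Kif11 implies a length of 4819 bases, against 7461 in the annotation used here. Its neighbours on chromosome 19, Hhex, Exoc6 and Ide, were at 77.2 ± 7.84, 34.1 ± 6 and 26.1 ± 4.96 TPM. Kif11 was not among the abundant kinesins. Of 42 kinesin genes, 23 passed 1 TPM in every library, and Kif22, a chromosome-arm motor, was the highest at 346, 316, 325 and 310.2 TPM, followed by Kif17 at 266, 259, 221 and 262 TPM and Kif23, a motor of cytokinesis, at 209.8, 219.8, 214 and 232 TPM. Kif20b was at 84.6 ± 5.57 TPM, Kif18a, which limits chromosome oscillation, at 46.7 ± 3.16 TPM, and Kif15, which can substitute for KIF11 in spindle bipolarity in cultured cells, at 0.897, 0.885, 0.848 and 0.88 TPM. Kifc1, a minus-end-directed motor that opposes KIF11, was at 4.4, 3.32, 0.807 and 2.68 TPM.

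Among tubulins, the beta-tubulins Tubb4b, Tubb6 and Tubb2a were at 1361 ± 133, 1252 ± 213 and 1018 ± 139 TPM, and the alpha-tubulin Tuba3a was at 1289, 1173, 1159 and 1119.99 TPM. Tuba1b was at 34.5, 55.4, 30.1 and 61.6 TPM. Tuba3b, a near-identical copy of Tuba3a, was at 229, 143, 187 and 97.9 TPM, and the split between them is uncertain. Genes of the actin cytoskeleton were all detected. Cfl1 (cofilin) was at 516, 556, 564 and 586 TPM, Actb at 117, 166, 157 and 139 TPM, the nucleator Fmn2, needed for spindle migration, at 35.2, 36.8, 48.7 and 32.6 TPM and its partner Spire1 at 73.5, 70.3, 81.6 and 76.3 TPM.

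The genes of sister chromatid cohesion differed widely. Pttg1, the inhibitor of separase, was at 2383, 2433, 2531 and 2459 TPM and Espl1, separase, at 6.74, 8.81, 6.77 and 8.63 TPM. Of the meiotic cohesin subunits, Rec8 was at a count of 0 in every library, with 0.199 TPM as the highest level that 3 counts would give, Stag3 was at 1.34, 0.408, 0.575 and 0.474 TPM and Smc1b at 8, 9.69, 11.4 and 9.73 TPM. Smc3, common to mitotic and meiotic cohesin, was at 176, 156, 172 and 136 TPM, and Smc1a, the counterpart of Smc1b in mitosis, at 52, 53.4, 49.9 and 51.3 TPM. Sgo2a, the protector of centromeric cohesion, was at 5.5, 6.27, 7.82 and 6.01 TPM.

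Of 18 genes of early prophase, 11 passed 1 TPM in every library, and 4 were below 1 TPM in every library, 2 of these at a count of 0. Syce2, a protein of the synaptonemal complex, was the only one above 100 TPM, at 949, 860.5, 879 and 940.4 TPM. Mei4 and Rec114, which help to form double-strand breaks, were at 37.8, 36, 48.8 and 43.7 and 23.2, 26.9, 18.2 and 22.9 TPM. Dmc1, the meiotic recombinase, was at 7.14, 6.17, 6.62 and 5.74 TPM. Spo11, the enzyme that makes the breaks and the source of the promoter in a Cre line of the study, had a count of 0 in every library, which allows up to 0.149 TPM, and Stra8 was likewise at 0.

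For chromatin, Dnmt1 was at 242, 309, 251 and 267 TPM, Dnmt3l at 118, 138, 112 and 152 TPM and Dnmt3a at 11.7, 13.6, 10.8 and 15.2 TPM, and Npm2, which remodels sperm chromatin, at 2844, 3105, 2991 and 3007 TPM. Zfp57, which protects imprints, was at 799.6, 847, 839.7 and 775 TPM. Tet3, the dioxygenase of the zygote, was at 25.8, 26.3, 23.3 and 21.5 TPM, Tet1 at 1.96, 1.15, 1.53 and 1.13 TPM and Tet2 at 0.202, 0.185, 0.402 and 0.299 TPM, so Tet3 was the highest of the 3 in every library. Canonical histone genes, whose mRNAs mostly lack a poly(A) tail, passed 1 TPM in every library in 15 of 70 cases, with Hist1h2bc at 193, 207, 261 and 280.3 TPM the highest and a sum of 507, 397, 533 and 488 TPM. Among imprinted RNAs, Mest was at 83.8, 76.1, 58.1 and 90.2 TPM and H19 and Igf2 at a count of 0. Exons of other annotated genes cover 64.5% of the exon bases of Igf2 and 9.15% of those of H19. They cover 100% for some histone genes at a count of 0, such as Hist2h2aa1. Whether such overlap lowered these counts was not tested.

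The egg's fertilization genes included Izumo1r, also known as Juno, at 565, 600.3, 636 and 699 TPM, Cd9, needed for membrane fusion, at 172, 229, 183 and 218 TPM and Astl, the protease that cleaves ZP2, at 113, 195, 102 and 192 TPM. Of the calcium channels, Trpm7 was at 5.23, 8.95, 5.23 and 6.59 TPM, Itpr1 at 2.31, 3.3, 2.71 and 2.64 TPM and Cacna1h at 0.716, 0.86, 0.863 and 1.03 TPM. In the small RNA pathway, Dicer1 was at 84.1, 75.9, 86.2 and 71.5 TPM, Ago2 at 13.1, 13.4, 12.7 and 14.6 TPM and Dgcr8 at 1.15, 0.938, 1.43 and 1.26 TPM, and Piwil2 and Piwil4 were below 1 TPM in every library.

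Glycolysis was represented unevenly. Ldhb was 106 ± 12.3 times Pkm, the next most abundant gene of the list, which was at 115, 142, 108 and 155 TPM. Tpi1, Aldoa and Eno1 were at 127 ± 14.9, 125 ± 14.1 and 57.5 ± 3.95 TPM. Ldha was at 0.103, 0.177, 0 and 0 TPM, Hk1 at 0.28, 0.0457, 0 and 0 TPM and Gapdh at 0.413, 0.472, 0.177 and 0 TPM. Gapdh has many processed pseudogenes, so reads that map to several places could have been left out of its count.

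Genes of other times and tissues were mostly low. Of 15 genes of zygotic genome activation, 2 passed 1 TPM in every library, Zscan4d at 16.3, 11.4, 6.53 and 5.04 TPM and Zscan4c at 2.25, 6.69, 2.01 and 1.96 TPM. Of 10 sperm genes, 6 were at a count of 0 and 2 passed 1 TPM in every library. These were Prm2, a protamine, at 52.1, 25.5, 37.3 and 27.8 TPM and Odf1 at 5.86, 6.36, 5.97 and 2.28 TPM. Only 1 of 39 Hox genes passed 1 TPM in every library, Hoxa7 at 33.1, 21.2, 25.9 and 35.1 TPM. Of 1407 olfactory receptor genes, 1200 were at a count of 0 in all libraries and 24 passed 1 TPM in every library, with Olfr976 at 111, 135, 114 and 143 TPM the highest. Of 10 genes of other organs, only Ins2 passed 1 TPM in every library, at 1.95, 2.08, 1.82 and 1.48 TPM. Of 10 immediate early genes, which respond within minutes to stress in many cells, 4 passed 1 TPM in every library and only Dusp1 had a mean above 10, at 55.8, 87.1, 54.2 and 91.1 TPM. Fos was at 0.29, 1.66, 1.56 and 1.16 TPM and Jun at a count of 0.

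Mitochondrially encoded genes held 0.497%, 0.405%, 0.604% and 0.425% of TPM in replicates 1 to 4, a mean of 0.483% against 0.228% by CPM. The messages differed widely although they are cut from common precursors. mt-Cytb was at 1392, 933, 1801 and 1175 TPM and mt-Co1 at 855, 704, 1178 and 765 TPM, while mt-Co2 was at 20.7, 17.4, 22.5 and 18.2 TPM, mt-Co3 at 28.9, 21.9, 33 and 32.2 TPM and mt-Atp6 at 9.26, 11.2, 15.6 and 11.1 TPM, and mt-Cytb was 66.4 ± 10.8 times mt-Co2. Chromosome 1 holds a nuclear copy of part of the mitochondrial genome, whose annotated pseudogenes Gm28437, Gm29216, Gm28661 and Gm10925 were at 42.1 ± 20.6, 25.3 ± 9.95, 13.8 ± 6.84 and 13.7 ± 3.58 TPM. Only uniquely mapped reads were counted, and how much of the low values of mt-Co2, mt-Co3 and mt-Atp6 that accounts for was not tested. Cytosolic ribosomal protein genes held 1.60% of TPM, and 84 of 92 passed 1 TPM in every library.

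The 4 libraries were alike. Over the 11394 genes at 1 TPM or more in all of them, Spearman correlations of pairs were 0.961 to 0.969 (across genes, which are not independent replicates). The median absolute log2 ratio was 0.23 to 0.28, a median difference of 1.17- to 1.22-fold. Counts of each pair differed by more than sampling noise, with a chi-square per degree of freedom of 5.73 to 9.37, which does not separate PCR from differences between oocytes. The common biological coefficient of variation of edgeR was 21.5% over 12106 genes, from the all-exon counts. Per gene, its 5th and 95th percentiles were 10.0% and 39.1%. The all-exon counts were a median of 1.96 times those of the exon 22 table, in which each read pair appears counted once. In that table the common value was 16.5% over 10982 genes. How much of the 21.5% came from counting read pairs more than once was not tested.

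The spread fell as levels rose. The median CV was 36.1% for 6959 genes at a mean of 1 to 10 TPM, 14.2% for 5175 at 10 to 100 TPM, 8.58% for 1573 at 100 to 1000 TPM and 6.40% for the 135 above. Counting alone, with each read pair counted once, gives medians of 20.0%, 6.18%, 2.79% and 1.01% for these bins, so the observed spread was above counting error at every level. Intervals of this kind cover counting error only, because no molecular identifiers were used and copies made by PCR cannot be separated from independent molecules.

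**Figure D4:**
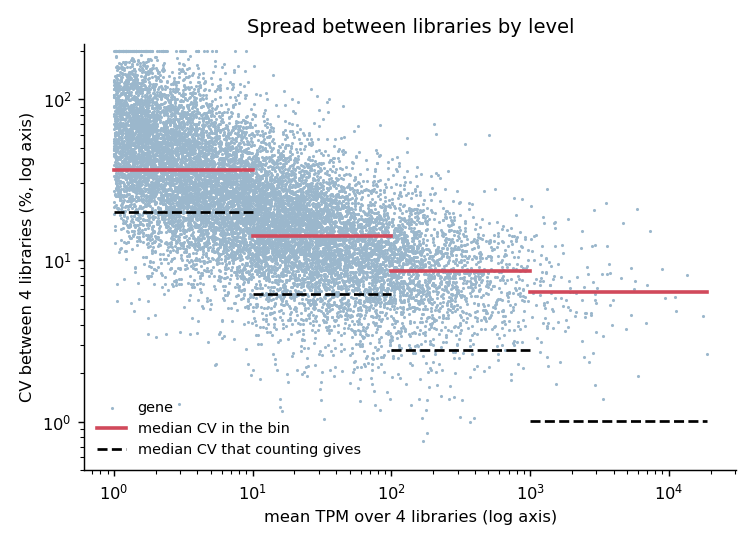
CV between the 4 libraries (vertical log axis, percent) against mean TPM (horizontal log axis) for each gene at 1 TPM or more, with the median CV of each bin (solid lines) and the median CV that counting gives (dashed lines). The solid lines step down from 36.1% to 6.40%, and the dashed lines lie below them in all 4 bins.

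The steadiest genes at a mean of 10 TPM or more were Vti1a, a vesicle fusion protein, at 17.6, 17.6, 17.7 and 17.8 TPM, Spc25, a subunit of the NDC80 kinetochore complex, at 169, 170.1, 172 and 170.02 TPM, and Mrps25, of the mitochondrial ribosome, at 180.5 to 184 TPM, followed by Snu13 and Poc5, with CVs of 0.671% to 1.04%. The 10 most variable genes were mostly unnamed or small noncoding genes. They included Gm21297, at 35.2, 3.1, 2.91 and 0 TPM, the small nucleolar RNAs Snord118 and Snora30, at 22.7, 11.6, 1.36 and 70.4 and 26.2, 3, 11.3 and 1.49 TPM, and the histone H2B gene Hist1h2ba, at 83.9, 7.12, 41 and 10.6 TPM. Several rested on few counts, and Gm21297 had counts of 26, 2, 2 and 0. Gm14322 had counts of 325, 80.0, 56 and 14.

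Genes varied together across libraries. The closest pairs were not those with a shared prefix in their names: replicates 1 and 3 differed by a median of 0.23 (log2) and so did replicates 2 and 4, against 0.25 for replicates 1 and 2 and 0.28 for replicates 3 and 4. Of 6880 genes at a mean of 10 TPM or more with a value in every library, replicates 2 and 4 were the highest pair or the lowest pair in 44.7%, replicates 1 and 2 in 29.6% and replicates 1 and 4 in 25.7%. Of the 16 mitochondrially encoded genes above 10 TPM, 9 were lower in both replicates 2 and 4 than in both replicates 1 and 3, and none was higher. Of 80 ribosomal protein genes above 10 TPM, 38 were lower in both and 4 higher, beside 18.6% lower and 26.1% higher over all genes. Other lists went the other way, with 3 of 3 zona genes, 7 of 11 NLRP genes and 8 of 11 tubulin genes higher in both, although of 17 oogenesin and F-box genes 1 was higher and 4 were lower. The pattern was noticed in the data, and no label describes it. GC content and exon length moved weakly with it. Across 11374 genes, which are not independent, Spearman's rho between GC content and the log2 ratio was 0.112 for replicate 2 over 1, 0.0940 for 4 over 1, 0.169 for 4 over 3 and -0.188 for 3 over 2, against -0.0975 for 3 over 1 and -0.0156 for 4 over 2. For exon length the values were 0.109, 0.0716, 0.0975 and -0.134, against -0.0324 and -0.0327. Their part in the pattern was not tested.

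**Figure D5:**
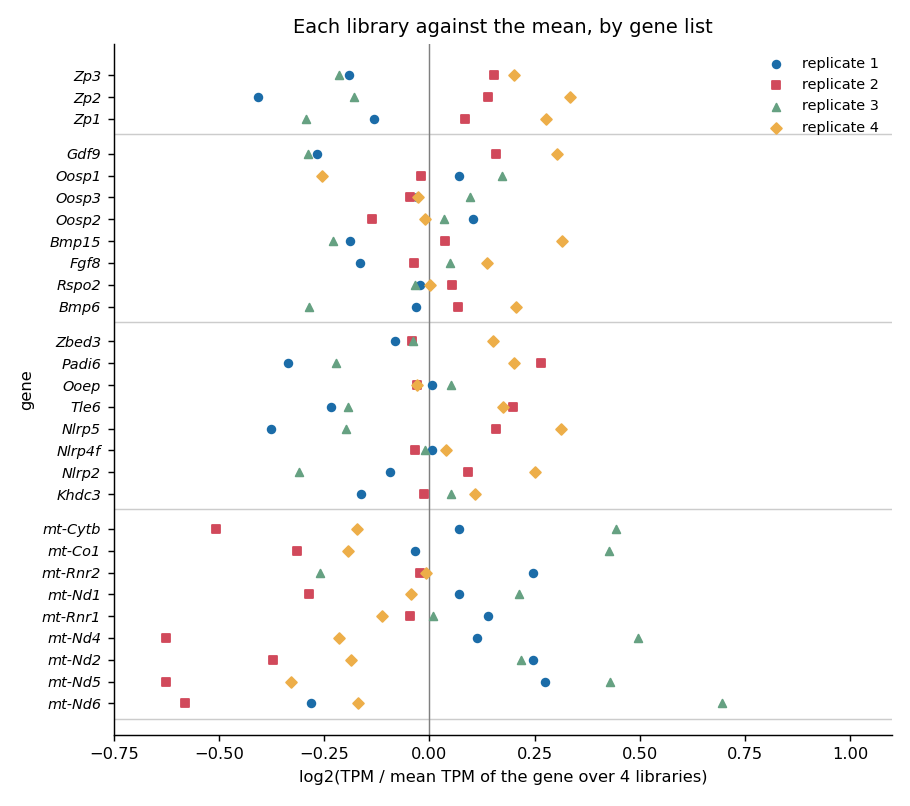
log2 of the TPM of each library over the mean of the gene (horizontal axis) for genes of 4 lists, separated by grey lines: zona pellucida, oocyte-secreted factors, subcortical maternal complex, and mitochondrially encoded genes at 100 TPM or more without transfer RNAs. Replicates 2 and 4 lie to the right for all zona genes and to the left of 0 for all 9 mitochondrial genes drawn.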

How the data were processed

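RNA of 3 oocytes per library was reverse transcribed and amplified as full-length poly(A) cDNA (SMART-seq v4), tagmented (Nextera XT) and sequenced in pairs on a HiSeqX, without strand information. The submitters' processing notes name fastp, HISAT2 2.2.1, featureCounts 2.0.3 (Subread) and GRCm38, and the methods Ensembl release 93. The authors deposited raw counts per gene and TPM, for all exons and for Kif11 exon 1 or exon 22. How TPM was made is not given in the sources used here. The all-exon tables were used unless stated. The exon 22 table served as an alternative, for counting error and for the chi-square per degree of freedom. Its counts are lower for other genes too, as if each read pair were counted once there. All-exon counts were a median of 1.96 times as high.

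Genes were classed with GENCODE M21 and 67 identifiers had no match. Levels are the deposited TPM, with the mean, SD and CV over 4 libraries from pandas 2.3.3 and numpy 2.4.6 in Python 3.11.15. A gene counted as detected at 1 TPM or more in all 4 libraries. For genes with a count of 0, the level of 3 counts per library is printed as the limit. Most read pairs appear to count as 2 in these counts, so 3 counts stand for fewer than 3 read pairs. A count of 0 may therefore allow a level above this limit. The common biological coefficient of variation came from the deposited counts of 12106 genes with edgeR 4.0.16 (TMM) in R 4.3.3. No groups were compared. A test used counts simulated from the exon 22 table, with a true biological coefficient of variation of 20% and 200 genes at 80%. The fit returned 22.4% over 11535 genes, and 170 of the 200 were among the 200 highest CVs of 8511 genes. The simulation held no read pairs counted as 2, so it does not test the fit to the all-exon counts in that respect.

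Genes named are the 25 highest, the 5 highest that are neither protein-coding nor mitochondrial, the 10 highest and 5 lowest CVs at a mean of 10 TPM or more, members of 36 lists and genes named in the study. The libraries, members and lists were chosen with earlier results of these data known. A few genes are not reported here. The listed symbol Dux was not matched. Figures were drawn with matplotlib 3.10.9.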

Additional observations from a re-analysis of the deposited data

Results flagged for a closer look

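Among 375 values over the 4 libraries (332 genes, 36 list sums and 7 library measures), 16 had 1 library far from the other 3, 4.27%. Chance alone sets apart about 1 in 20 groups of independent, normally distributed values. Some of the genes were included for their high CV in these data, and genes varied together, so that rate is only a rough guide. All 16 were single genes. Replicate 1 held 3 of them, replicate 2 held 2, replicate 3 held 7 and replicate 4 held 4.

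Replicate 1 was highest for Gm21297 (35.2 TPM) and the ribosomal protein gene Rps25 (176 TPM), and lowest for Nlrp4b (337 TPM). Replicate 2 was lowest for Gm813 (6258 TPM) and highest for Fbxw13 (781 TPM). Replicate 3 was highest for Oosp3 (2674 TPM), the mitochondrial transfer RNA mt-Tq (222 TPM) and Rpl26 (219 TPM). It was lowest for Gpr3 (13.4 TPM against 22.1 to 23.0 in the others), the cohesin subunit Rad21 (17.9 TPM), Rpl7 (66.4 TPM) and the kinesin Kif17 (221 TPM). Replicate 4 was highest for Cdc25a (18.7 TPM) and the imprinted gene Snrpn (30.1 TPM), and lowest for Asz1 (147 TPM) and Rpl15 (61.5 TPM).

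The Kif11 counts over single exons are not given above. Their mean was 23 over exon 1 (16, 29, 27 and 20 in replicates 1 to 4). Over exon 22 it was 51 (72, 60, 26 and 46), and both means were above the limit of 3 counts.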

How the results depend on the processing

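No paired analysis was possible because the report compares no groups. The number of detected genes (11394) moved by less than 1.5 times under each alternative run, and was 7846 at 5 TPM and 12661 at 0.5 TPM. This number cannot fall when a library is left out, because fewer libraries must then pass. Of the 25 most abundant genes, 18 were kept by CPM, with Mdm4, Umodl1, Zp2, Spin1, Bpgm, Rdx and Obox5 entering, and 19 in the exon 22 table. By CPM, the 100 most abundant genes held 26.0% in place of 34.2%, mitochondrial genes 0.228% in place of 0.483%, and the granulosa and cumulus markers summed to 105 CPM in place of 54.9 TPM. In the exon 22 table these shares were 39.2% and 6.67%. The TPM of that table, also behind the 19 genes kept, used other lengths for most genes placed after Kif11, as described below. With each read pair apparently counted once in that table, the biological coefficient of variation was 16.5% in place of 21.5%. It was 31.6% with genes above 0 in at least 3 libraries. The median absolute log2 ratio was 0.33 for genes above 0 and 0.23 with a pseudocount of 1 TPM, in place of 0.26. The X-linked over autosomal ratio was 1.00 at 5 TPM or more and 0.859 above 0, in place of 0.919. Leaving out each library in turn gave 11689 to 11769 detected genes, 34.0% to 34.4% for the 100 most abundant, 0.442% to 0.509% for mitochondrial genes, 51.5 to 58.9 TPM for the granulosa markers, 0.25 to 0.27 for the log2 ratio, 21.4% to 22.2% for the coefficient of variation and 0.894 to 0.952 for the X-linked ratio. With 3 oocytes per library and at most 4 mice, differences between animals and between libraries cannot be told apart.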

Other observations

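The TPM of the tables limited to 1 Kif11 exon differed from the all-exon TPM in genes that follow Kif11 in the row order. The length behind each TPM was recovered from counts and TPM. For 21760 of 21760 genes placed before Kif11 the all-exon and exon 22 tables used equal lengths within 1%, but for only 10 of 268 placed after it. Where the preceding gene also had a length, the exon 22 table's length equalled that of the preceding gene in 159 of 159 cases, and the exon 1 table gave 159 as well. mt-Cytb had a length of 1144 bases and 1325 TPM in the all-exon table, against 69 bases and 19026 TPM in the exon 22 table. Plce1, a phospholipase, was 168 times as high there. Mitochondrial genes then held 6.67% of TPM in place of 0.483%, and genes placed before Kif11 were at a median of 0.878 times their all-exon TPM. In the all-exon table, the lengths of 95.9% of 22281 genes lay within 1% of the exon length in GENCODE M21.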
